A study of Mus musculus with 3 samples.

Results

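Scgb3a1, Prom1, Car4, Hcar1, Sparcl1, Stc1 and Igfbp3 are 7 of the 31053 genes counted in every library of this single-cell survey of Peyer's patch (PP) blood endothelial cells (EC). They were selected on these data, because they marked capillary cells of the control library or were lower in capillary cells after COUP-TFII overexpression. Their levels by EC subset and their ratios to control are therefore given below as a description, with no test. Scgb3a1 encodes a small secreted secretoglobin, Prom1 the membrane protein prominin-1 (CD133) of cell protrusions, and Car4 a carbonic anhydrase anchored to the luminal face of capillaries. Hcar1 is a cell-surface receptor for lactate. Sparcl1 encodes the matricellular protein hevin, Stc1 the secreted glycoprotein stanniocalcin-1, and Igfbp3 a carrier of insulin-like growth factors (IGF).

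Capillary EC exchange gas, solutes and metabolites with the tissue, whereas the venules downstream, and the high endothelial venules of PP in particular, recruit lymphocytes. COUP-TFII, encoded by Nr2f2, is a nuclear receptor that maintains venous identity and is normally low in capillary and arterial EC. The overexpression sets capillary EC with this venous regulator beside capillary EC without it.

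The control library (1 sample) came from mice of strain C57BL/6 and is labelled WT. The 2 EC-iCOUPOE libraries, replicates 1 and 2, came from CDH5(PAC)CreERT2;COUP-TFIIOE/OE mice, in which a cadherin 5 promoter drives a tamoxifen-inducible Cre in endothelium and Cre removes a stop cassette ahead of a COUP-TFII transgene. All mice were 6 to 10 weeks old, and EC were taken 14 to 19 days after tamoxifen. According to the study's methods, controls received tamoxifen, and male and female mice were processed together. The study's methods use littermates without the Cre as controls for these crosses, and the labels do not say whether the control library came from such mice. The number of mice behind each library is not given in the sources used here, and reads of the transgene and of the endogenous Nr2f2 gene cannot be told apart.

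The libraries held 6080, 4959 and 1441 cell barcodes (control, EC-iCOUPOE replicate 1 and replicate 2, the order used throughout), with median depths of 2368.5, 2884 and 2180 unique molecular identifiers (UMIs, 1 per captured transcript). Control and replicate 2 shared 12 barcodes, and no other pair shared any. Blood EC numbered 2402, 3448 and 972 after filtering, and were split into 14 clusters that were named here from marker genes with the 7 genes left out. Clusters 1, 7 and 9, named capillary after Gpihbp1, Cd36, Rgcc, Kdr, Cd300lg and Ly6c1, held 419, 876 and 369 cells. They are called PP capillary EC (PP CapEC) because lamina propria (LP) was not the most frequent of the study's subset labels in them. Those labels were held for part of the EC-iCOUPOE cells only, so LP capillary cells of the control may be included. The PP CapEC were not spread evenly. Of the control cells 389 lay in cluster 7, whereas 514 and 278 EC-iCOUPOE cells lay in cluster 1 and 322 and 55 in cluster 9. Cxcl10 and Tgtp2 led cluster 1, and the interferon-response genes Rsad2 and Ifit3 led cluster 9. Cluster 4 (270, 179 and 136 cells) scored highest for the capillary list but is reported by its number. Its leading genes held a marker of capillary resident progenitors (CRP), Esm1, and no marker of the capillary list. Esm1 was also among the leading genes of cluster 7, beside the capillary marker Rgcc. Cluster 4 made up 11.2%, 5.19% and 14.0% of blood EC. The other clusters without a name held 10, 522 and 128 cells (cluster 3) and 183, 484 and 31 cells (cluster 2). Nr2f2 measured 14.2, 2231 and 1372 CPM (UMIs of the gene divided by all UMIs of a group of cells, scaled to 1e+06) in PP CapEC, in the order its labels call for.

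In control cells the 7 genes were enriched in capillary clusters, with exceptions. Scgb3a1 was highest in cluster 4 at 4964 CPM (95% exact Poisson interval 4767 to 5166) and next in PP CapEC at 4568 CPM (4403 to 4737), followed by CRP-like cells at 976, arterial EC at 781, postcapillary venule EC (PCV) at 168 and high endothelial cells (HEC) at 50.4 CPM. The intervals of cluster 4, PP CapEC, CRP-like, arterial and PCV cells did not overlap. All intervals given here cover counting error only. Hcar1 stood at 209 CPM in PP CapEC, 147 in cluster 4 and 103 in arterial EC, where only neighbouring values overlapped, and at 26.4 CPM in PCV. Car4 stood at 316 CPM in PP CapEC and 250 in CRP-like cells, which overlapped, then at 110 CPM in cluster 4 and only 8.85 CPM in arterial EC. Car4 was thus the member with the sharpest step between capillary and arterial cells of the control. Sparcl1 reached 1865 CPM in CRP-like cells and 1572 CPM in PP CapEC, but pericytes or smooth muscle cells held 1675 CPM, which overlapped both, and fibroblasts 506 CPM. Pericytes or smooth muscle cells of the control also held 460 CPM of Scgb3a1, above PCV, and 56.4 CPM of Hcar1.

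Scgb3a1, Prom1, Igfbp3, Car4 and Sparcl1 were among the 10 leading genes of cluster 4, and Car4, Scgb3a1, Hcar1 and Sparcl1 among those of cluster 7. The members were kept out of the genes that formed the clusters. They had been chosen in part as markers of control capillary cells, so these ranks give no support. The name of control capillary gene held less well for Prom1, Stc1 and Igfbp3. Prom1 stood at 223 CPM in cluster 4, 179 in CRP-like cells and 147 in arterial EC, a range in which neighbours overlapped, whereas PP CapEC held 97.5 CPM, below the arterial interval of 127 to 170. Pericytes or smooth muscle cells held 58.7 CPM of Prom1 (38.0 to 86.7), which overlapped PP CapEC (74.7 to 125). Stc1 was highest in arterial EC at 74.0 CPM, overlapping cluster 4 at 64.1 and ahead of PP CapEC at 40.9 CPM, whose interval of 26.7 to 59.9 just met the arterial one. Igfbp3 ran from 683 CPM in CRP-like cells through 653 in cluster 4 and 560 in PP CapEC to 471 in arterial EC, each overlapping the next. Fibroblasts held 278 CPM of Igfbp3. As a share of all blood EC UMIs of the control, PP CapEC and cluster 4 together held 73.4% for Scgb3a1, 65.1% for Car4, 51.4% for Hcar1, 48.0% for Sparcl1, 39.5% for Prom1, 35.9% for Igfbp3 and 25.2% for Stc1.

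**Figure D1:**
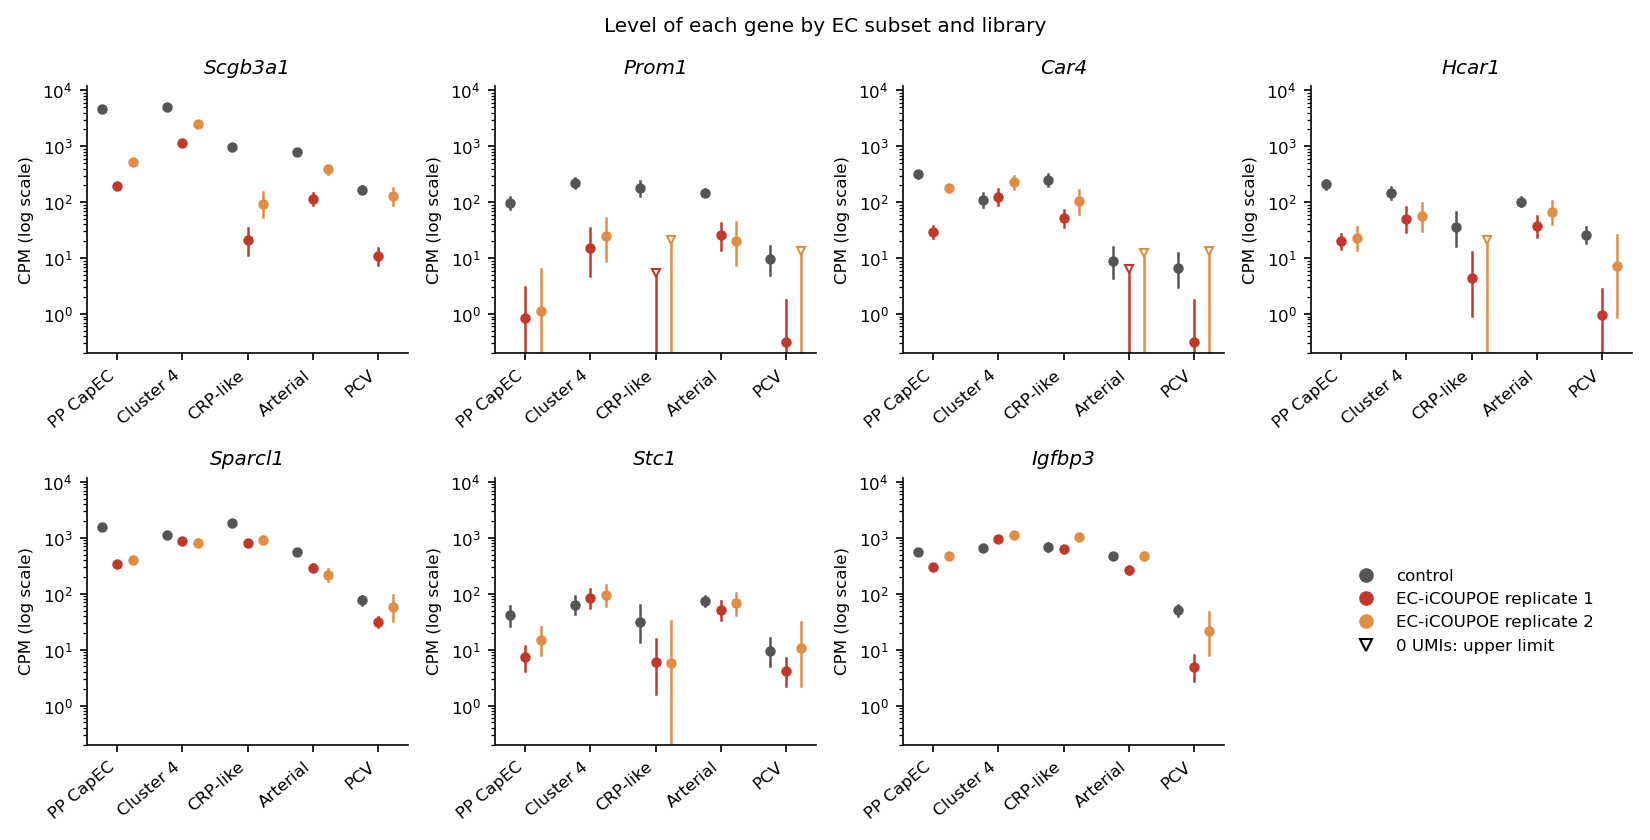
Level of each of the 7 genes (CPM, log axis) in 5 endothelial groups, 1 point per library, with 95% exact Poisson intervals as vertical lines and open triangles at the upper limit where no UMI was seen. The control points of Scgb3a1 (4568 CPM in PP CapEC) and Prom1 (97.5 CPM) lie far above the EC-iCOUPOE points there, whereas Igfbp3 points lie close together in the first 4 groups.

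In PP CapEC the point values of the 7 genes were below control in both EC-iCOUPOE libraries, and for Scgb3a1, Prom1, Hcar1 and Sparcl1 the difference was large in both. With 1 control library no test was possible, so a gene was called lower or higher when both EC-iCOUPOE libraries differed from control at least 2-fold, provided that 1 library or more held at least 50 UMIs of it. Of the 6 genes that passed, 4 (Scgb3a1, Prom1, Hcar1 and Sparcl1) were called lower, Car4 and Igfbp3 were not called, and Stc1 did not pass. Prom1 and Hcar1 passed only through control, where they were high, so their part in this count and in the median gives no support to a direction. Among all 5907 genes that passed the filter, 163 (2.76%) were called lower, a background from which nothing is read here because the contrast was used to choose the members. The median log2 ratio of the 6 genes was -3.39 in replicate 1 and -2.56 in replicate 2, beside 0.03 and -0.13 for all 5907 genes.

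Scgb3a1 had 2905 UMIs in control PP CapEC against 461 and 452, that is 4568 CPM against 197 and 520 CPM. Both EC-iCOUPOE libraries lay well under the control, replicate 2 less so. The log2 ratios were -4.54 (95% interval -4.68 to -4.40) and -3.14 (-3.28 to -2.99), a mean of -3.84 ± 0.99 (SD, n = 2), or 23.2-fold and 8.79-fold lower. Prom1 was nearly undetected, with 62 UMIs in 419 control cells against 2 UMIs in 876 cells and 1 UMI in 369 cells, or 97.5, 0.853 and 1.15 CPM. Its log2 ratios of -6.84 (-9.91 to -4.92) and -6.41 (-11.73 to -3.87) rest on those few UMIs, and their mean was -6.62 ± 0.30 (SD, n = 2). The lactate receptor gene Hcar1 had 133, 47 and 20 UMIs (209, 20.04 and 23.0 CPM), and the replicates lay close to each other at log2 ratios of -3.38 and -3.18, a mean of -3.28 ± 0.14 (SD, n = 2). Sparcl1 showed the smallest difference of the 4 called genes, with 1000, 801 and 347 UMIs (1572, 341 and 399 CPM) and log2 ratios of -2.20 and -1.98, a mean of -2.09 ± 0.16 (SD, n = 2). That the control stood above both other libraries in all 4 genes follows from the rule that called them.

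The other 3 genes were not called, for different reasons. Car4 measured 316 CPM in control, 29.8 CPM in replicate 1 and 177 CPM in replicate 2 (201, 70 and 154 UMIs). Its log2 ratios were -3.40 (-3.82 to -3.01) and -0.84 (-1.15 to -0.53), so replicate 1 lay 10.6-fold and replicate 2 only 1.78-fold lower, and the intervals of the replicates were apart from each other. Stc1, with 26, 17 and 13 UMIs (40.9, 7.25 and 14.9 CPM), was over 2-fold lower in both libraries by point value, with log2 ratios of -2.50 and -1.45, but did not reach 50 UMIs in any library. Igfbp3 was the nearest to the control, at 560, 307 and 465 CPM (356, 719 and 404 UMIs), with log2 ratios of -0.87 (-1.05 to -0.68) and -0.27 (-0.48 to -0.06), a mean of -0.57 ± 0.42 (SD, n = 2). The 2-fold rule separated Sparcl1 (3.94-fold lower in the replicate nearer to control) from Car4 (1.78-fold) and Igfbp3 (1.21-fold) among the genes that passed the filter, and Stc1, which did not, lay in between at 2.74-fold.

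**Figure D2:**
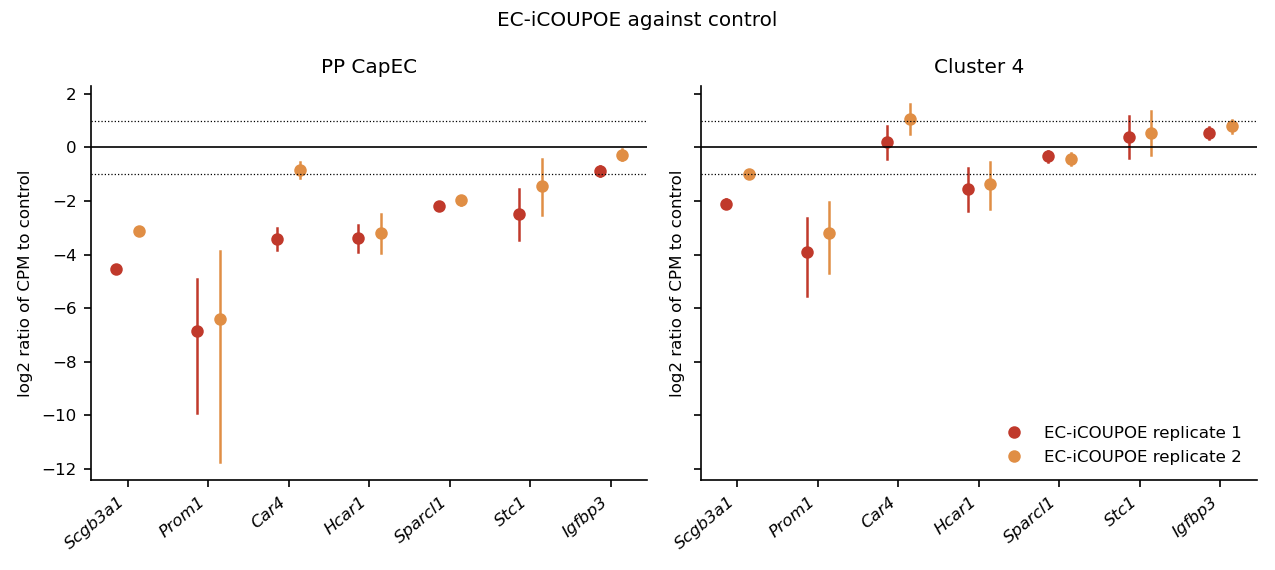
Log2 ratio of CPM to control for each gene in PP CapEC (left) and cluster 4 (right), 1 point per EC-iCOUPOE library with its 95% counting interval, and dotted lines at 2-fold. In PP CapEC all 14 points lie below 0, down to -6.84 for Prom1, whereas in cluster 4 Car4, Stc1 and Igfbp3 lie above 0.

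Marker sums, depth and sex of the PP CapEC differed between the libraries too. The summed fibroblast markers stood at 95.9 CPM in control PP CapEC and at 1.28 and 4.60 CPM in the EC-iCOUPOE libraries, where 5 and 4 of 6 fibroblast markers were at 0. The control library held 2478 fibroblasts, against 8 and 4. Control fibroblasts held 506 CPM of Sparcl1, 278 of Igfbp3, 20.6 of Hcar1, 17.8 of Scgb3a1, 2.23 of Stc1, 1.67 of Car4 and 1.39 of Prom1, and the part of fibroblast RNA in the ratios was not tested. The PCV list summed to 203, 2602 and 3288 CPM in PP CapEC and the HEC list to 470, 2684 and 3791 CPM. Of the PCV markers, 5 of 7 lay above control in both EC-iCOUPOE libraries and 0 below. Of the HEC markers, 2 of 7 lay above control in both and 1 below. The HEC list includes Madcam1, which the paper reports as induced in capillary cells by COUP-TFII. These sums do not count HEC or PCV cells. The capillary list itself summed to 5764, 2845 and 5175 CPM, with 3 of 6 markers below control in both. Lymphocyte markers were at 0 for 5, 6 and 6 of 6 genes, and myeloid markers for 6, 4 and 3 of 6. Median depth was 1397, 2364 and 2272 UMIs per PP CapEC, and the part of depth and of these other genes in the ratios was not tested beyond the comparison at equal depth below. Cells with male transcripts numbered 17, 172 and 53 and cells with female transcripts 237, 355 and 188, so that the control PP CapEC were mostly female.

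The capillary cells were not uniform in how the genes stood. Within cluster 7, which held 389, 40 and 36 cells, Scgb3a1 measured 4725, 275 and 1108 CPM and Hcar1 220, 39.3 and 94.5 CPM. Those Hcar1 values rest on 129, 3 and 7 UMIs. Prom1 had 52 UMIs in control and none in either EC-iCOUPOE library, at least 2.26-fold and 2.19-fold lower when 3 counts per library are allowed for a count of 0. In the same cluster, Car4 measured 331 CPM in control, 341 CPM in replicate 1 and 1486 CPM in replicate 2, and Igfbp3 550, 1297 and 932 CPM. Car4 and Igfbp3 were thus at or above the control level in the few EC-iCOUPOE cells that clustered with control capillaries. In cluster 1, which held most other EC-iCOUPOE capillary cells, Car4 stood at 20.3 and 42.7 CPM and Igfbp3 at 193 and 370 CPM. Replicate 1 had 40 of its 876 PP CapEC in cluster 7, against 36 of 369 in replicate 2. Within cluster 1 and within cluster 7, Car4 was also lower in replicate 1 than in replicate 2. The part of the clusters in the gap between the replicates in pooled Car4 was not tested. Sparcl1 was called lower in pooled PP CapEC but not within cluster 7. There 3 of 6 members that passed the filter (Scgb3a1, Prom1 and Hcar1) were called lower, beside 3.26% of 2022 genes. Prom1 and Hcar1 passed the filter in cluster 7 only through control, where they were high. Sparcl1 had 945, 55 and 66 UMIs in cluster 7 and lay below control in both EC-iCOUPOE libraries. In cluster 9, which held only 25 control cells, 2 of 3 members that passed the filter (Scgb3a1 and Sparcl1) were called lower, beside 3.43% of 2828 genes. Sparcl1 was not called in cluster 4. The part of the clusters in the pooled Sparcl1 call was not tested.

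Cluster 4 held other capillary-scored cells. Its capillary list summed to 4740, 4792 and 9415 CPM. The arterial list summed to 709, 509 and 423 CPM there, against 384, 167 and 152 CPM in PP CapEC. In cluster 4, 3 of 6 genes that passed the filter were called lower (33 of 1678 genes, 1.97%). Of these 3, Prom1 and Hcar1 passed the filter only through control, where they were high. Prom1 had 108, 5 and 6 UMIs (223, 14.9 and 24.4 CPM), with log2 ratios of -3.91 and -3.19, a mean of -3.55 ± 0.50 (SD, n = 2). Hcar1 measured 147, 50.6 and 56.9 CPM, with log2 ratios of -1.54 and -1.37. Scgb3a1, at 4964, 1162 and 2477 CPM, had log2 ratios of -2.10 and -1.003, the latter on the line of the 2-fold rule. Sparcl1 stayed near control at 1104, 879 and 821 CPM (-0.33 and -0.43). Car4 (110, 125 and 228 CPM) and Igfbp3 (653, 944 and 1131 CPM) lay above control in both libraries by point value. The log2 ratios were 0.19 and 1.06 for Car4, whose control and replicate 1 intervals overlapped, and 0.53 and 0.79 for Igfbp3. Nr2f2 in cluster 4 was 1, 418 and 142 UMIs, so Nr2f2 was detected in these cells mostly in the EC-iCOUPOE libraries. Haemoglobin transcripts measured 6682, 2442 and 20.3 CPM in this cluster, and their part in its values was not tested.

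At equal depth the shares of positive cells ordered the libraries the same way. With each cell thinned to 1000 UMIs, Scgb3a1 was detected in 81.1% of control PP CapEC (340 of 419, 95% Clopper-Pearson interval 77.1 to 84.8), in 13.8% (121 of 876, 11.6 to 16.3) in replicate 1 and in 28.7% (106 of 369, 24.2 to 33.6) in replicate 2. Prom1 was found in 34 of 419 control cells (8.11%) and in 0 of 876 and 0 of 369 EC-iCOUPOE cells, which allows shares of up to 0.342% and 0.813%. Hcar1 was found in 19.3%, 1.598% and 2.71% of cells, and Sparcl1 in 72.6%, 25.8% and 31.2%. For each of these 4 genes the control interval was apart from both others. Car4 was found in 18.6%, 2.63% and 9.76% of cells, and here too the control interval (15.002 to 22.7) did not meet that of replicate 2 (6.93 to 13.3). Igfbp3 was found in 29.8% of control cells (25.5 to 34.5), 17.2% in replicate 1 (14.8 to 19.9) and 24.7% in replicate 2 (20.3 to 29.4), the latter overlapping control. Stc1 was found in 3.58%, 0.685% and 0.813% of cells, where the control interval (2.02 to 5.84) overlapped that of replicate 2 (0.168 to 2.36).

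Background from free RNA was read in cells named from the lymphocyte list, taken here to lack these genes. Their leading genes included Prss34, Mcpt8, Mcpt1, Cpa3, Igkc, Jchain and Ighm and no gene of that list, so they are called lymphocyte-like. Among 18 lymphocyte-like cells of the control (median 1471 UMIs, against 1397 in PP CapEC) 2 had a Scgb3a1 UMI, 11.1% with an interval of 1.38 to 34.7. None had a UMI of the other 6 genes, which allows up to 16.7%. Among 30 lymphocyte-like cells of replicate 1 (median 4177.5 UMIs, against 2364), 2 had a Sparcl1 UMI (6.67%) and 1 an Igfbp3 UMI (3.33%). The other 5 genes were at 0, which allows up to 10.0%. The Scgb3a1, Sparcl1 and Igfbp3 intervals of control PP CapEC lay above these, whereas the control shares of Prom1 and Stc1 were under the limit of 16.7% and the control intervals of Car4 and Hcar1 reached below it. In replicate 1 the shares of Hcar1, Stc1 and Car4 were under the limit of 10.0% and Prom1 was at 0. The Igfbp3 interval met that of the lymphocyte-like cells (0.0844 to 17.2). These shares could thus not be told from background by so few lymphocyte-like cells. Replicate 2 had only 2 lymphocyte-like cells, which gave no usable background. Replicate 1 PCV (748 cells) held 4.83 CPM of Igfbp3, 0.322 of Car4 and 0.965 of Hcar1, with intervals below those of PP CapEC, whereas Stc1 (4.18 CPM) overlapped. In replicate 2 PCV (95 cells), Scgb3a1, Car4, Sparcl1 and Igfbp3 intervals lay below those of PP CapEC, and Prom1, Hcar1 and Stc1 overlapped. In 393 control HEC, a venous population, the shares were 2.29% for Scgb3a1, Sparcl1 and Igfbp3 and 0.254% for Prom1 and Car4. The Prom1 share of control PP CapEC (5.68 to 11.2) was apart from the HEC interval (0.00644 to 1.41), whereas that of Stc1 overlapped its HEC share of 1.02% (0.278 to 2.59). Without thinning, the PP CapEC shares were 85.9%, 25.8% and 41.2% for Scgb3a1 and 11.9%, 0.228% and 0.271% for Prom1.

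**Figure D3:**
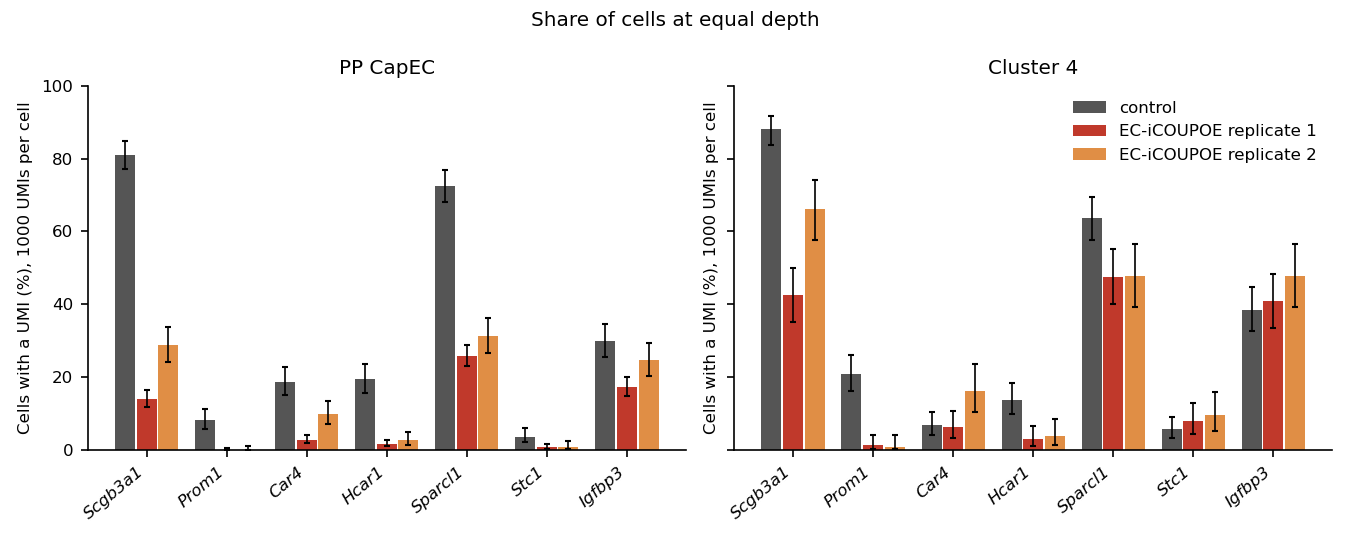
Share of cells (%) with at least 1 UMI of each gene after thinning to 1000 UMIs per cell, in PP CapEC (left) and cluster 4 (right), with bars for the 3 libraries and 95% Clopper-Pearson intervals. The Scgb3a1 bars of PP CapEC stand at 81.1% in control and at 13.8% and 28.7%, whereas the Igfbp3 bars of cluster 4 run from 38.5% to 47.8%.

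In cluster 4 the shares separated fewer genes. Scgb3a1 was found in 88.1%, 42.5% and 66.2% of cells and Prom1 in 20.7%, 1.12% and 0.735%, with the control intervals apart from both. Hcar1 was found in 13.7%, 2.79% and 3.68% of cells, again apart. Sparcl1 was found in 63.7%, 47.5% and 47.8% of cells, with intervals apart by a small gap (control from 57.7, replicate 2 up to 56.5). Car4 was found in 6.67%, 6.15% and 16.2% of cells, higher in replicate 2 than in control (10.4 to 23.5 against 3.999 to 10.3). Igfbp3 (38.5%, 40.8% and 47.8%) and Stc1 (5.56%, 7.82% and 9.56%) overlapped across all libraries.

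Counted together, the 7 genes reached most control capillary cells and fewer EC-iCOUPOE ones. At 1000 UMIs per cell, 96.7% of control PP CapEC had a UMI of at least 1 of the genes, against 48.6% and 64.0% of EC-iCOUPOE PP CapEC. At least 2 of the genes were found in 82.8%, 11.6% and 26.3% of cells. No PP CapEC or cluster 4 cell had more than 5 of the 7 after thinning, and 5 were reached in 6 of 419 control PP CapEC and in none of the EC-iCOUPOE PP CapEC. In cluster 4, at least 1 of the genes was found in 98.1%, 76.0% and 93.4% of cells. Within control PP CapEC, pairs of genes were found together about as often as their separate shares give, for example Scgb3a1 with Sparcl1 in 60.1% of cells against 58.9% under independence and Scgb3a1 with Car4 in 12.6% against 15.1%. Prom1 and Hcar1 were found together in 12 cells, 2.86% against 1.57% under independence, and Prom1 and Car4 in 3 cells, 0.716% against 1.51%. These pairs share library, depth and cluster and are given as a description.

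**Figure D4:**
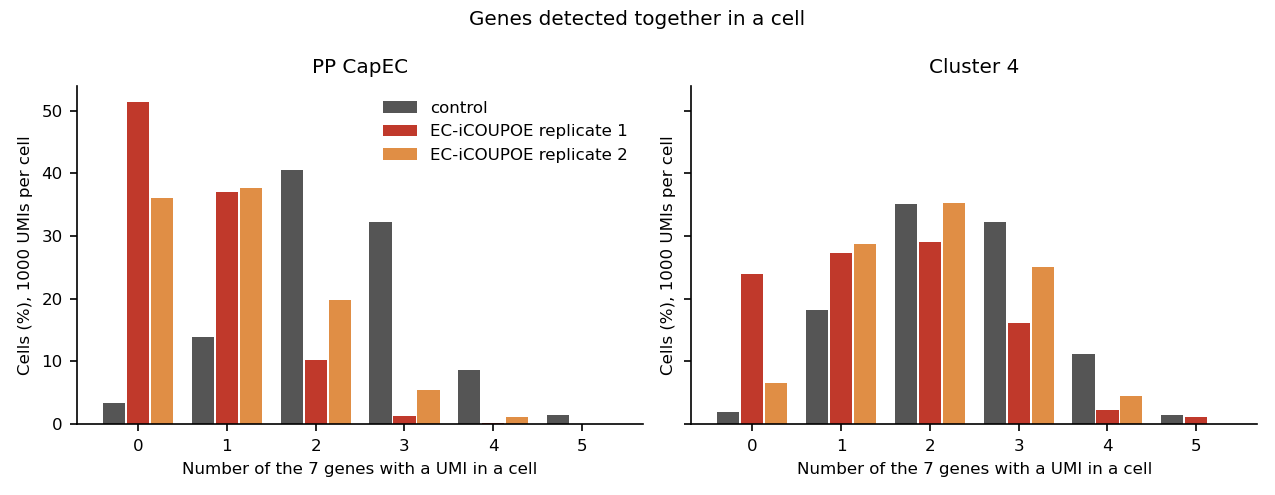
Share of cells (%) by the number of the 7 genes with a UMI in the cell, after thinning to 1000 UMIs per cell, for the 3 libraries in PP CapEC (left) and cluster 4 (right). Control PP CapEC peak at 2 genes per cell (40.6%), whereas 51.4% of replicate 1 and 36.0% of replicate 2 cells have none.

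Within EC-iCOUPOE libraries the cells differed in their Nr2f2 UMIs, which sets a comparison inside a single library. In PP CapEC thinned to 1000 UMIs, Nr2f2 was found in 0.716% of control cells and in 84.7% and 69.1% of EC-iCOUPOE cells, so 134 and 114 cells had no Nr2f2 UMI. Car4 was found in 8.21%, 2.43%, 1.09% and 1.42% of replicate 1 cells having 0, 1, 2, and 3 or more Nr2f2 UMIs. The same classes of replicate 2 gave Car4 shares of 19.3%, 7.76%, 2.99% and 4.17%. In both libraries the interval of cells without Nr2f2 UMIs (4.17 to 14.2 and 12.5 to 27.7) was apart from that of cells with 3 or more (0.461 to 3.27 and 0.868 to 11.7). Car4 was the only member of which this held. Within cluster 1 alone, with fewer cells in each class, the Car4 shares for 0 and for 3 or more Nr2f2 UMIs were 4.35% and 1.56% in replicate 1 and 4.69% and 4.41% in replicate 2, with overlapping intervals, and the part of the clusters in the gap was not tested.

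The shares of Scgb3a1 in PP CapEC overlapped across the Nr2f2 classes. Scgb3a1 was found in 16.4%, 13.6%, 10.9% and 14.4% of replicate 1 cells with 0, 1, 2 and 3 or more Nr2f2 UMIs, and in 28.1%, 24.1%, 34.3% and 31.9% of replicate 2 cells, with overlapping intervals throughout each series. Even the cells without a Nr2f2 UMI thus lay under the control share of 81.1%. Prom1, at 0 in all EC-iCOUPOE PP CapEC at this depth, could not be compared by class. Sparcl1 ran from 26.1% (0 Nr2f2 UMIs) to 24.6% (3 or more) in replicate 1 and from 39.5% to 23.6% in replicate 2, overlapping in both. A cell with 0 Nr2f2 UMIs at this depth can still express Nr2f2, so these classes are not cells with and without recombination.

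In cluster 4 of replicate 1 the classes did separate. Scgb3a1 was found in 59.0% of 78 cells with 0 Nr2f2 UMIs and in 17.1% of 35 cells with 3 or more, Igfbp3 in 60.3% and 14.3%, and Sparcl1 in 59.0% and 28.6%, each with intervals apart. In replicate 2, with 81 and 11 cells in these classes, Scgb3a1 was found in 71.6% and 27.3%, Igfbp3 in 51.9% and 27.3% and Sparcl1 in 42.0% and 54.5%, each overlapping. The order in Scgb3a1 and Igfbp3 was the same in both libraries, and that in Sparcl1 was not.

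**Figure D5:**
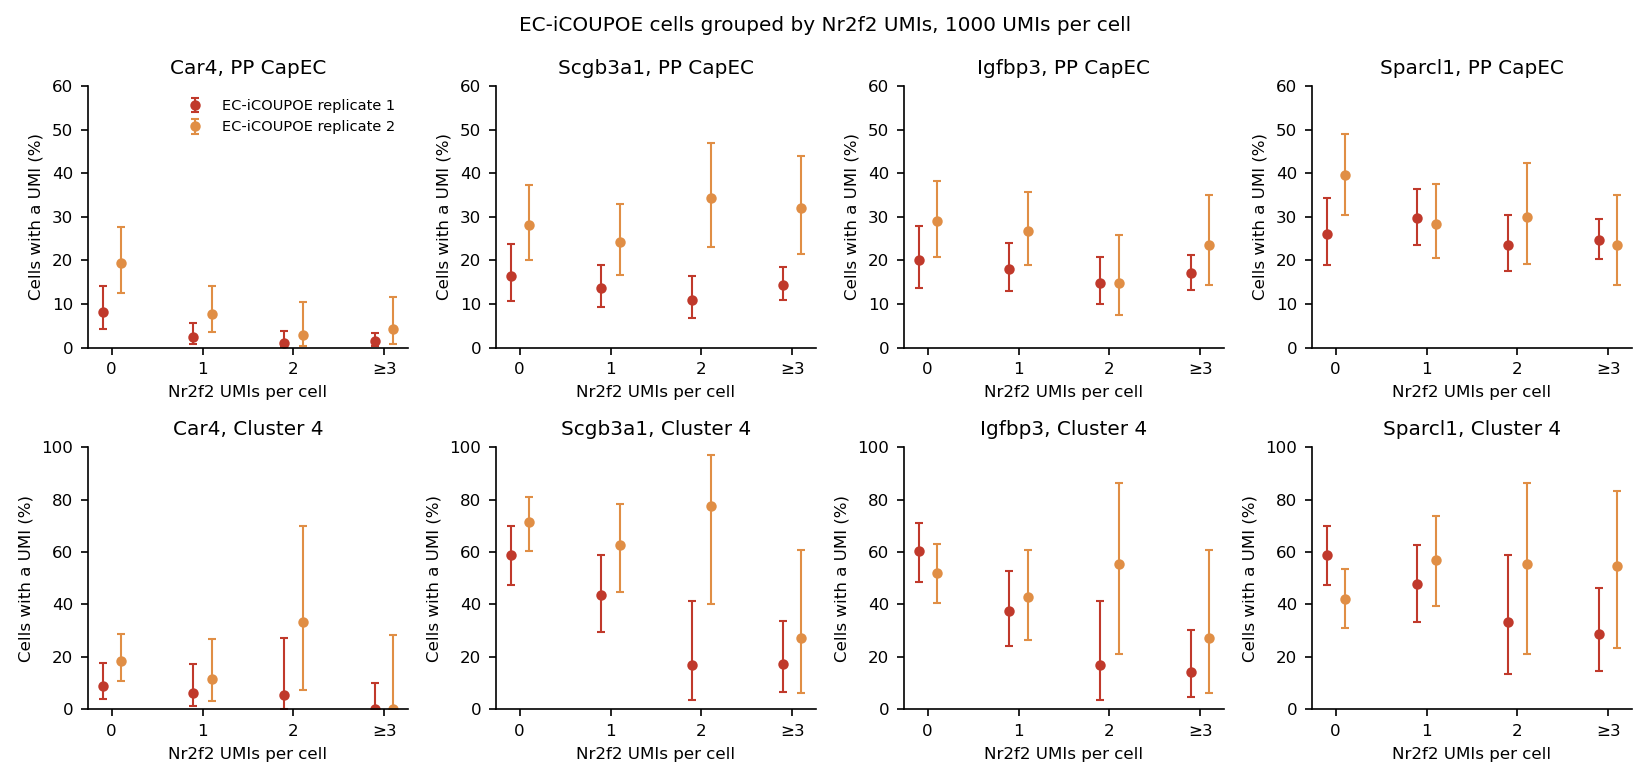
Share of EC-iCOUPOE cells (%) with a UMI of Car4, Scgb3a1, Igfbp3 or Sparcl1 by the number of Nr2f2 UMIs in the cell, after thinning to 1000 UMIs per cell, in PP CapEC (top) and cluster 4 (bottom), with 95% Clopper-Pearson intervals. Car4 in PP CapEC runs from 8.21% and 19.3% at 0 Nr2f2 UMIs to 1.42% and 4.17% at 3 or more, whereas the Scgb3a1 intervals of PP CapEC overlap within each library.

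Outside the capillary clusters, different members were called in different subsets. In CRP-like cells (119, 189 and 66 cells) 2 of 4 members that passed the filter were called lower, beside 2.81% of 2279 genes. These were Scgb3a1, with 246, 14 and 16 UMIs (976, 20.8 and 93.3 CPM) and log2 ratios of -5.55 and -3.39, and Car4, with 63, 35 and 18 UMIs (250, 52.1 and 105 CPM) and log2 ratios of -2.26 and -1.25. Both passed the filter only through control, where they were high. Prom1 had 45 UMIs in control CRP-like cells and 0 in both EC-iCOUPOE libraries, at least 39.98-fold and 10.2-fold lower on the same allowance, but stayed under the filter. Sparcl1, at 1865, 814 and 933 CPM, ended just outside the rule with log2 ratios of -1.20 and -0.999. Igfbp3 did not share this direction, at 683, 633 and 1044 CPM.

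In arterial EC (565, 218 and 124 cells) 1 of 6 members was called lower, beside 3.16% of 3960 genes. This was Prom1, with 183, 15 and 6 UMIs (147, 25.5 and 20.2 CPM) and log2 ratios of -2.53 (-3.40 to -1.77) and -2.87 (-4.33 to -1.72), a mean of -2.70 ± 0.24 (SD, n = 2). Prom1 passed the filter in arterial EC only through control, where it was high. Scgb3a1 measured 781, 115 and 391 CPM, with log2 ratios of -2.76 and -0.9996, the latter just short of 2-fold. Stc1, which had its highest control level here, stayed near control at 74.0, 51.0 and 67.4 CPM (-0.54 and -0.14). Sparcl1 measured 547, 292 and 216 CPM and was not called. By arterial cluster, Prom1 was called lower in cluster 5 (beside 2.83% of 2545 genes) and Sparcl1 in cluster 11 (3.28% of 977). Scgb3a1 and Sparcl1 were called lower in cluster 13 (3.01% of 764), which held 91, 58 and 14 cells. No direction is read from these calls. Prom1 was also the only member called lower when all blood EC were pooled (beside 2.48% of 10232 genes). It had 430, 43 and 21 UMIs there (54.1, 3.33 and 8.75 CPM) and again passed the filter only through control. Its point values were below control in PP CapEC, cluster 4, CRP-like and arterial cells of both libraries.

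Venous and dividing cells gave 1 member called lower and 1 called higher. In PCV (421, 748 and 95 cells), 1 of 3 members was called lower, beside 1.66% of 6621 genes: Igfbp3, with 69, 15 and 6 UMIs (50.5, 4.83 and 21.8 CPM). Igfbp3 passed the filter in PCV only through control, where it was high. Scgb3a1 in PCV measured 168, 10.9 and 127 CPM, so the replicates stood far apart. In dividing EC (22, 143 and 21 cells), Igfbp3 was called higher with 15, 152 and 25 UMIs (69.1, 193 and 256 CPM) and log2 ratios of 1.48 and 1.89, beside 9.4% of 2735 genes called higher. Igfbp3 passed the filter there only through replicate 1, where it was above control, so the call gives no support to a direction. Sparcl1 lay above control there too, at 120, 182 and 399 CPM, but short of 2-fold in replicate 1. HEC were too few in replicate 2 (2 cells) for a ratio. Outside endothelium, in pericytes or smooth muscle cells (131, 210 and 90 cells), 2 of 3 members were called lower, beside 1.96% of 3017 genes. These were Scgb3a1 (196, 8 and 0 UMIs) and Igfbp3 (102, 46 and 5 UMIs). Both passed the filter there only through control, where they were high. Prom1 and Hcar1, under the filter, measured 58.7, 7.54 and 0 CPM and 56.4, 17.2 and 0 CPM. Sparcl1 was not called, at 1675, 1078 and 1650 CPM.

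Promoter windows were at hand for 5 of the 7 genes (RefSeq, build GRCm38.p6), and Sparcl1 and Stc1 had none in the table used. Those of the 3 called genes with a window are shown because these genes were lower together, as the 250 bases before the annotated start on the gene's strand, in lower case with the searched letters in capitals. The motifs were the COUP-TFII core GGTCA, the NKX core AAGTG and the HEY E-box CACGTG, read on both strands, so that TGACC and CACTT mark the reverse of GGTCA and AAGTG. The windows lie at chr11:49663345-49663594 on the plus strand for Scgb3a1, at chr5:44101737-44101986 on the minus strand for Prom1 and at chr5:123880004-123880253 on the minus strand for Hcar1.
Scgb3a1: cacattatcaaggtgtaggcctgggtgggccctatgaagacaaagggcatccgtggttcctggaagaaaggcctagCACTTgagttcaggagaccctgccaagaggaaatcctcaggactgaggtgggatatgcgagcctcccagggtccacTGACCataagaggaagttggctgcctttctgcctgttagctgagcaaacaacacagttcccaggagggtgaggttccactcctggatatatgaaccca
Prom1: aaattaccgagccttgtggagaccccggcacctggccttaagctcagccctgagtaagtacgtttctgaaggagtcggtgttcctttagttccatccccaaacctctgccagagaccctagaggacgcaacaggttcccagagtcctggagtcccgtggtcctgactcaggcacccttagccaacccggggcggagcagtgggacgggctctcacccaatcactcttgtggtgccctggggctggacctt
Hcar1: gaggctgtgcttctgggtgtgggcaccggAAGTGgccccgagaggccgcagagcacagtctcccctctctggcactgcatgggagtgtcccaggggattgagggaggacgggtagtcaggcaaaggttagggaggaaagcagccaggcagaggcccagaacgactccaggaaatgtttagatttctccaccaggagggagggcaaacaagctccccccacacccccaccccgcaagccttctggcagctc
Scgb3a1 held 1 reverse GGTCA beginning 98 bases and 1 reverse AAGTG beginning 174 bases before the start. Hcar1 held AAGTG 221 bases before the start, and the window of Prom1 held no searched letters before the start and AAGTG from base 16 after it. Another annotated Prom1 start, with its window at chr5:44094769-44095018, held AAGTG on both strands before it and a reverse GGTCA from base 19 after it, and Car4 held GGTCA 229 bases before its start. CACGTG was in none of these windows, and Igfbp3 held no searched letters. Over all 32851 windows of 300 bases, 40.5% held GGTCA, 46.4% AAGTG and 7.15% CACGTG on either strand, so the matches are common letters and describe the windows only. In build GRCm38 the genes span chr11:49663610-49665118 (Scgb3a1), chr5:43993620-44102032 (Prom1), chr11:84957786-84966044 (Car4), chr5:123876736-123880020 (Hcar1), chr5:104079111-104113733 (Sparcl1), chr14:69029238-69041804 (Stc1) and chr11:7206086-7213923 (Igfbp3), and all are annotated as protein coding.

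Relatives of the 7 genes in PP CapEC were called in few cases. None of 4 other secretoglobins passed the filter, and 3 had no UMI in the PP CapEC of any library, as had Prom2, the other prominin, and Stc2, the other stanniocalcin. Of 15 other carbonic anhydrases 2 passed the filter, and Car8, a member of the family without catalytic activity, was called higher at 25.2, 119 and 83.9 CPM (log2 ratios of 2.25 and 1.74), beside 354 (5.99%) of the 5907 genes. With 16 control UMIs, Car8 passed the filter only through the EC-iCOUPOE libraries, so its call gives no support to a direction. None of the 3 lactate-handling genes that passed, of 7, was called, with the lactate dehydrogenase gene Ldha at 509, 339 and 415 CPM and Bsg, the chaperone of lactate transporters, at 464, 754 and 634 CPM. In the SPARC family none of the 2 genes that passed, of 7, was called, and Sparc itself measured 2475, 2044 and 2252 CPM.

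In the IGF axis, 6 of 13 genes passed the filter, of which 1 was called lower and 3 higher, beside 2.76% and 5.99% of all genes. The matrix-bound IGF carrier Igfbp7 was called lower, at 19690, 7818 and 8860 CPM (log2 ratios of -1.33 and -1.15), and was not called in cluster 4 (-0.36 and -0.25). The ligand gene Igf1 (22.0, 45.6 and 65.5 CPM), the clearance receptor gene Igf2r (15.7, 53.3 and 40.2 CPM) and the insulin receptor gene Insr (31.4, 121 and 110 CPM) were called higher. These 3 genes, with 14, 10 and 20 control UMIs, passed the filter only through the EC-iCOUPOE libraries, so their count gives no support to a direction of the list. In cluster 4, where they did not pass, the log2 ratios were 1.91 and 2.35 for Igf1, 0.15 and 0.08 for Igf2r and -0.70 and 0.17 for Insr. Igfbp4, another carrier, measured 928, 913 and 523 CPM and was not called. The medians over the 6 genes were 0.51 and 0.26, beside 0.03 and -0.13 for all genes.

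A list of 15 other capillary genes, 14 of which passed the filter, served as the nearest comparison, and 6 of its genes had been used to name the clusters. Gpihbp1, which holds lipoprotein lipase at the capillary wall, was its only gene called lower, at 165, 38.8 and 50.6 CPM, with log2 ratios of -2.09 and -1.71 but of 0.32 and -0.16 in cluster 4. Cd36, the fatty acid transporter gene, measured 690, 373 and 790 CPM, and Rgcc 679, 423 and 890 CPM. The receptor genes Kdr (866, 648 and 528 CPM) and Flt1 (1392, 892 and 915 CPM) lay below control without reaching 2-fold in either library, and Plvap, the gene of the diaphragms of fenestrated capillaries, was level at 5068, 5351 and 4785 CPM. Others passed 2-fold in 1 library only. Ly6c1 (log2 ratios of -1.50 and -0.22), Fabp5 (-0.88 and -1.46) and Nkx2-3 (-0.83 and -1.32) were lower, and Aplnr (1.04 and 0.61) was higher. The median log2 ratios of the 14 genes were -0.53 and -0.21.

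The genes most like each member were sought over 25 profiles, each a subset or unnamed cluster of blood EC in 1 library with at least 20 cells, among 7398 genes. Pearson's r was taken on log2(CPM + 10), and the profiles share libraries and depth, so r is a description. Sparcl1 and Igfbp3 were each among the 3 genes most like the other (r = 0.909), beside Myct1 (0.916) and Esm1 (0.909) for Sparcl1 and the Notch ligand gene Dll4 (0.860) and Ednrb (0.858) for Igfbp3. Scgb3a1 and Prom1 both had the chemokine gene Cxcl12 among their 3 (r = 0.872 and 0.851), with Oaz2 (0.887) and Fkbp4 (0.879) for Scgb3a1 and the netrin receptor gene Unc5b (0.890) and Fryl (0.874) for Prom1. Hcar1 and Stc1 both had Abhd6 (r = 0.904 and 0.830), with Ddah2 (0.896) and Grasp (0.894) for Hcar1 and Ssu2 (0.844) and the Notch target gene Hey1 (0.841) for Stc1. Car4 stood with Ccdc85a (0.902), the endothelial receptor gene Robo4 (0.890) and BC028528 (0.858). Among the members themselves r was lowest between Prom1 and Igfbp3 (0.389) and between Prom1 and Car4 (0.414).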

How the data were processed

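The authors deposited raw counts, as a matrix of UMI counts per gene and cell for each of the 3 libraries (10x Genomics 3' chemistry). Per the file headers they were written by Cell Ranger 3.0.2 (control and EC-iCOUPOE replicate 2) and 3.1.0 (replicate 1), and the submitters' processing notes name Cell Ranger 3.0.2 and build mm10. Library totals were 17341398, 17417260 and 3548983 UMIs. A cell entered with 500 genes or more, 1000 UMIs or more and no more than 10% of UMIs from mitochondrial genes (5473, 4750 and 1243 cells). Doublets scored above 0.25 by Scrublet in scanpy 1.11.5 (138, 96 and 9) were removed. Cells were integrated and clustered at resolution 1 with Seurat 5.3.0 in R 4.3.3, first into cell types and then within blood EC, with the 7 genes, their families and sex-linked genes left out of the 2000 variable genes. A cluster was named from a marker list scoring at least 0.5 (log2), a limit set after the data were seen, with at least 3 markers detected. No other list could have more markers among its 10 leading genes. A capillary cluster was called PP unless LP was its most frequent label from the study, and control cells had no label. Subset names are thus rebuilt here and may differ from the study's. Cells are not replicates: UMIs were summed per library and subset and given as CPM, with 95% exact Poisson intervals (exact Clopper-Pearson for shares; scipy 1.17.1, Python 3.11.15). With 1 control library there was no test. Genes reaching 50 UMIs in any library were called when both EC-iCOUPOE libraries differed at least 2-fold from control in 1 direction, and a count of 0 was set at 3 counts per library for folds. The code was tested on simulated data. Genes named are the 7 members, relatives called in PP CapEC or with at least 50 UMIs in control PP CapEC, Nr2f2, and the 3 genes most correlated with each member. The members, lists and rules were chosen with earlier results of these data known. Alternatives covered clustering resolution, doublets, mitochondrial and UMI filters, sex, thinning depth, the gene filter, TMM scaling (edgeR 4.0.16), each replicate left out and the population taken as capillary.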

Additional observations from a re-analysis of the deposited data

Results flagged for a closer look

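Among genes with at least 50 UMIs in a library, 4 contrasts of a gene with control ran in opposite directions in 2 groups of EC, in both EC-iCOUPOE libraries each time. The differences themselves were not tested, since there was 1 control library. The mean log2 ratio of Car4, the capillary carbonic anhydrase, was 0.62 ± 0.61 (SD, n = 2) in cluster 4 and -2.12 ± 1.82 in PP CapEC. In cluster 4 its intervals in control (82.1 to 143 CPM) and replicate 1 (90.2 to 169 CPM) overlapped. That of Igfbp3 was 0.66 ± 0.18 in cluster 4 and -0.57 ± 0.42 in PP CapEC. In dividing EC, with 22 control cells and 21 cells of replicate 2, it was 1.69 ± 0.29 for Igfbp3 and 1.17 ± 0.80 for Sparcl1, against -0.57 and -2.09 in PP CapEC. Both genes passed the minimum in dividing EC only through replicate 1, where they were above control. The Sparcl1 intervals of control (78.2 to 175 CPM) and replicate 1 (153 to 214 CPM) overlapped there. Stc1, under that minimum, lay in opposite directions too, at 0.46 ± 0.12 in cluster 4 and -1.97 ± 0.74 in PP CapEC. Groups of 2 libraries are too small for a search for outlying samples.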

How the results depend on the processing

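The number of the 7 genes called lower in PP CapEC, 4 as reported, was 2 among male cells alone (17 control cells), 2 (Scgb3a1 and Sparcl1) with a minimum of 200 UMIs per gene, 1 over all blood endothelium, and 3 to 5 under the other alternatives. A minimum of 10 UMIs or no filter on genes added Stc1. Resolution 1.6 lost Hcar1, but its PP CapEC were partly other cells. They held 204 control cells, of which 173 lay in a cluster led by Scgb3a1 and Prom1. Clusters with 355 and 129 control cells that scored highest for the capillary list went unnamed there. Another 94 control cells lay in a capillary cluster that was named LP. Cells with at least 2000 UMIs (49 control cells) lost Prom1 and Hcar1 and gained Car4. Female cells lost Prom1, and Car4 was added without doublet removal and without replicate 2. With each EC-iCOUPOE replicate left out the number was 4 to 5, and that of all genes called lower, 163 as reported, was 234 to 312, since 1 library then has to pass in place of both. The latter was 87 among male and 85 among female cells, 33 in cluster 4 alone, 254 over all blood endothelium, and 413, 39 and 550 with a minimum of 10 UMIs, of 200 UMIs and with no filter on genes. No ratio of a called gene changed sign. Apart from leaving out a replicate, mean log2 ratios ran from -3.88 to -1.55 for Scgb3a1, from -7.49 to -3.33 for Prom1, from -3.49 to -1.45 for Hcar1 and from -2.11 to -0.38 for Sparcl1, with cluster 4 or all blood endothelium nearest to 0. Taking cluster 4, pooled cells or all blood endothelium was chosen after seeing the data. TMM scaling moved the median of all genes in replicate 2 from -0.13 to 0.00. Of the alternatives, 61 ratios moved by less than the spread between replicates and 28 by more, and of shares 16 stayed within their interval and 26 did not. Clustering each library alone gave PP CapEC of 559 and 378 cells and none in replicate 2, with replicate 1 log2 ratios of -4.44 (Scgb3a1), -5.50 (Prom1), -3.30 (Car4), -2.94 (Hcar1), -2.05 (Sparcl1), -2.33 (Stc1) and -0.29 (Igfbp3). With each library clustered alone, clusters with Scgb3a1 among the leading genes were named arterial in replicate 1 (203 cells) and replicate 2 (167 cells). In control, such clusters of 457 and 320 cells were named capillary and arterial. No PP CapEC cluster had 100 cells of every library, and Prom1 and Hcar1 gave no value in male cells. No paired analysis was possible because there is 1 control library and its number pairs with no sample. Depth limits Prom1 and Stc1 most, and 18, 30 and 2 lymphocyte-like cells limit the background shares.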
